A study of Homo sapiens with 12 samples.

Results

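The genes described here are 48 members of the WNT signalling system that act at or outside the cell surface, out of 60623 genes in the count table. They were listed by name, with earlier results of these data known. The list held 18 WNT ligands, 10 Frizzled receptors, and 5 co-receptors and other WNT receptors (LRP5, LRP6, ROR1, ROR2 and RYK). It also held 9 secreted antagonists (4 DKK genes, 4 SFRP genes and WIF1), 4 R-spondins, and PORCN and WLS, which prepare ligands for secretion. Every member name was found in the table. RNA was sequenced from COLO320DM and SW480, established human colon cancer cell lines, each transfected by Lipofectamine with 10 µg of pCMV6-HKDC1, which expresses the hexokinase-family gene HKDC1 from a CMV promoter, or of the empty vector pCMV6-Entry. The plasmid medium was replaced after 24 h. Each of the 4 groups had 3 libraries, numbered 1 to 3, and the empty-vector cells of both lines therefore went through the same transfection as the HKDC1 cells. Each condition rests on a single cell line, and nothing in the labels tells if the 3 libraries of a group come from separate cultures, so p-values measure only the spread between these samples.

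WNT proteins are secreted lipid-modified signals. PORCN attaches the lipid, WLS carries the ligand to the cell surface, and a Frizzled receptor binds it together with LRP5 or LRP6 to stabilise β-catenin, or with ROR1, ROR2 or RYK to signal without it. DKK1 and DKK4 block LRP5 and LRP6, SFRP proteins and WIF1 bind the ligands themselves, and R-spondins raise the amount of Frizzled and LRP at the surface. In the intestine these signals maintain the crypt stem cells. Colon cancers often carry APC mutations that activate β-catenin downstream of the receptors, and antagonist genes such as the SFRP genes and WIF1 are known to be silenced in many of them.

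Library totals ranged from 33790733 to 45451279 counts. HKDC1 was at 0 to 1 counts in COLO320DM and 1275 to 1549 counts in SW480 with empty vector, and at 269799 to 333102 and 477515 to 499910 counts with pCMV6-HKDC1, as the labels state. Of 9 colon epithelium markers, 8 reached 1 CPM (counts scaled by library size and TMM factors) in every SW480 library and 5 did so in COLO320DM, where CDX1 was at 0 and CDH1 averaged 0.0308 CPM with empty vector. Of 8 neuroendocrine markers, 3 did so in each line. Endothelial markers summed to at most 1.20 CPM in any library and no fibroblast or leukocyte list had more than 3 markers at that level, although PTPRC averaged 36.6 CPM in COLO320DM with empty vector. In both lines replicate 1 stood apart from replicates 2 and 3: chi-squared per degree of freedom between libraries of a group was 24.5 to 82.9 for pairs with replicate 1 and 3.18 to 10.1 for replicates 2 and 3. The labels do not say what the number marks, so culture, day and library preparation cannot be told apart, and in bulk RNA fewer cells with a transcript and less of it per cell cannot be told apart either.

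A member was counted as expressed in a line when it reached 1 CPM in all 6 of that line's libraries. By this measure 22 of 48 members were expressed in COLO320DM and 27 in SW480, against 26.4% and 26.9% of all genes in the table. Both lines expressed 18 members, COLO320DM alone 4 (WNT5A, WNT5B, ROR1 and WIF1) and SW480 alone 9 (WNT7A, WNT8B, WNT10A, WNT16, FZD9, FZD10, DKK1, DKK4 and SFRP5), and 17 members met the level in neither. PORCN and WLS were expressed in both lines, Frizzled receptors in 8 of 10 cases in COLO320DM and all 10 in SW480, and co-receptors and other WNT receptors in 4 of 5 and 3 of 5. Ligands reached the level in 6 of 18 and 8 of 18, antagonists in 2 of 9 and 4 of 9, and no R-spondin reached it in either line. WNT5A, WNT6, WNT7B and WNT9A missed the level in SW480 through 1 or both replicate 1 libraries alone. Without replicate 1 the SW480 count was 31. WNT4 missed it in COLO320DM through both replicate 1 libraries alone. ROR1 missed it in SW480 through 1 library at 0.944 CPM, and DKK1 in COLO320DM through 1 at 0.810 CPM. WNT8B missed it in COLO320DM through libraries at 0.881 and 0.752 CPM. On a level scaled by gene length, 1 RPKM in every library, the counts were 19 in COLO320DM and 15 in SW480.

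**Figure D1:**
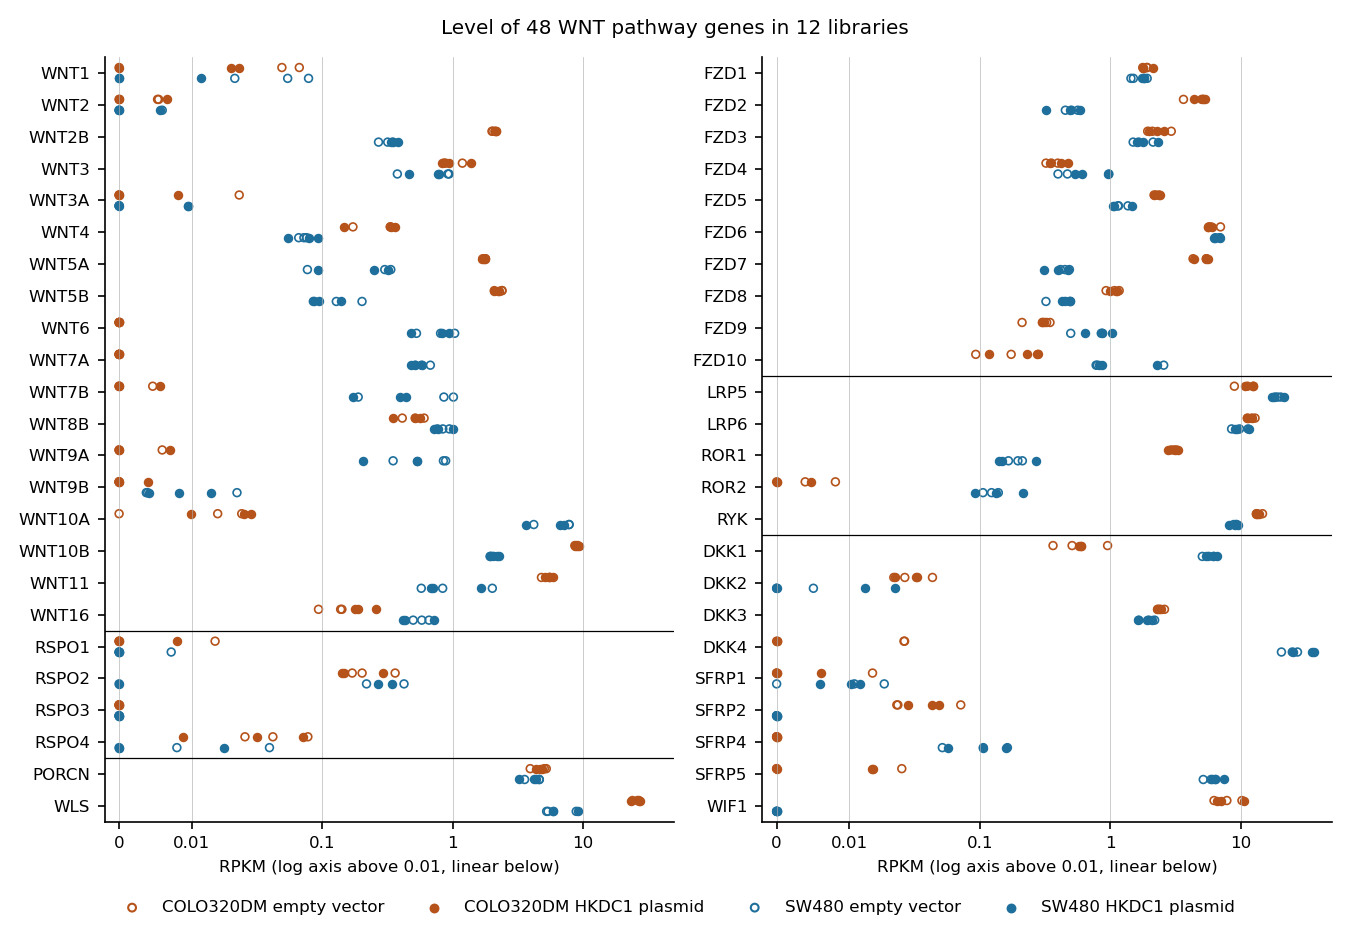
Level of each of the 48 genes in the 12 libraries, in RPKM, on an axis that is logarithmic above 0.01 and linear below it. Open circles are empty-vector libraries and filled circles pCMV6-HKDC1 libraries, brown for COLO320DM and blue for SW480, and horizontal lines separate the classes. WIF1, ROR1, WNT5B, FZD2 and FZD7 lie higher in COLO320DM, and DKK4, SFRP5, WNT10A and WNT7A higher in SW480, with the plasmids intermixed.

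Ligand levels were compared between genes as RPKM, the CPM divided by the deposited gene length in kilobases. That length takes in all deposited exons of a gene (12374 bases for WNT2B, 2601 for WNT10B), so ranks depend on it. By CPM WNT2B averaged above WNT10B in COLO320DM with empty vector (25.3 and 23.04 CPM). In COLO320DM the summed ligand level was 21.7 to 23.6 RPKM, and WNT10B held 39.5–40.4% of it in the 6 libraries, followed by WNT11 with 21.8–25.2%, WNT5B with 9.49–10.9%, WNT2B with 8.76–9.79% and WNT5A with 7.45–8.15%. In SW480 the sum was 11.3 to 17.1 RPKM and WNT10A led with 32.5–47.7%, followed by WNT10B with 11.4–20.2%. WNT10A and WNT10B are close relatives that signal through β-catenin, whereas WNT5A, WNT5B and WNT11 are best known for β-catenin-independent signalling. Of the SW480 ligand level, WNT5A and WNT5B held at most 2.09% and 1.19%, whereas WNT11 held 3.38–16.3%.

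By RPKM FZD6 was the highest Frizzled receptor in both lines. It held 22.4–29.7% of the summed Frizzled RPKM in COLO320DM and 37.1–47.8% in SW480. By mean CPM with empty vector FZD3 was above FZD6 in COLO320DM (32.06 and 25.21) and below it in SW480 (24.26 and 27.39). FZD6 was at 28.4, 24.03 and 23.2 CPM with empty vector and 24.6, 22.9 and 22.8 CPM with pCMV6-HKDC1 in COLO320DM, and at 28.01, 25.97 and 28.2 and 25.8, 28.0 and 25.4 CPM in SW480. The plasmid groups of each line overlapped for this gene, and COLO320DM with empty vector overlapped both SW480 groups, whereas COLO320DM with pCMV6-HKDC1 lay below both. FZD7 and FZD2 took 18.3–22.5% and 15.5–21.1% of the Frizzled level in COLO320DM but 2.06–3.45% and 1.89–3.89% in SW480. Among the co-receptors RYK, LRP6 and LRP5 were at similar RPKM in COLO320DM (32.2–37.0%, 28.4–32.4% and 22.5–31.0% of the class). LRP5 led in SW480 with 44.8–55.1%.

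By RPKM each line had a different leading antagonist. By mean CPM with empty vector DKK3 was above WIF1 in COLO320DM (29.14 and 17.05) and above DKK4 in SW480 (23.19 and 21.66). WIF1 held 67.8–77.7% of the summed antagonist RPKM in COLO320DM and DKK3, a DKK relative that does not act as a typical LRP blocker, held 17.4–25.5%. DKK4 held 59.7–70.7% in SW480, with SFRP5 at 12.9–18.7% and DKK1 at 10.7–16.6%. The summed antagonist level was 9.08 to 13.9 RPKM in COLO320DM and 34.3 to 51.2 RPKM in SW480, so the ranges did not overlap, while the summed co-receptor level was 38.5 to 41.1 and 36.7 to 39.3 RPKM. The size of the antagonist gap depends on the deposited lengths, 896 bases for DKK4 and 11958 for DKK3. DKK3 therefore counts for far less in RPKM than in CPM, and a sum of CPM was not made. DKK2, SFRP1 and SFRP2 stayed at or below 0.188, 0.0879 and 0.143 CPM in every library of either line.

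Members with 0 counts in every library of a line were few. WNT6, WNT7A and SFRP4 had 0 counts in all 6 COLO320DM libraries, which allows up to 0.0129 CPM (3 counts over the 6 libraries, counting error only). WIF1 and SFRP2 had 0 counts in all 6 SW480 libraries, which allows up to 0.0126 CPM. RSPO3 had 0 counts in all 12 libraries, which allows up to 0.00637 CPM. WNT1, WNT2, WNT3A, WNT9B, RSPO1 and RSPO4 were detected at most at 0.191, 0.0289, 0.0694, 0.154, 0.0463 and 0.214 CPM.

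The next comparison asked which members differed between the lines themselves, using the empty-vector libraries. Of the 48 members 38 passed the filter on low counts, which a gene could pass through 1 line alone. By edgeR's quasi-likelihood test with Benjamini-Hochberg adjustment over all 23684 genes tested, 16 members were higher in SW480 (background 37.3%) and 16 lower (background 34.3%), 32 of 38 in all. The background in either direction was 71.6% of all genes tested, so most genes differed between these lines and the share of members called (32 of 38) is read against that. With a block for the replicate number (fitted separately for each line), 36 of 38 were called against a background of 81.6%. Ligands split into 7 higher and 6 lower in SW480, Frizzled receptors into 3 and 4, co-receptors into 2 and 3, and antagonists into 4 and 2. The median log2 difference was −0.19 over the 38 members and 0.04 over all genes tested.

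**Figure D2:**
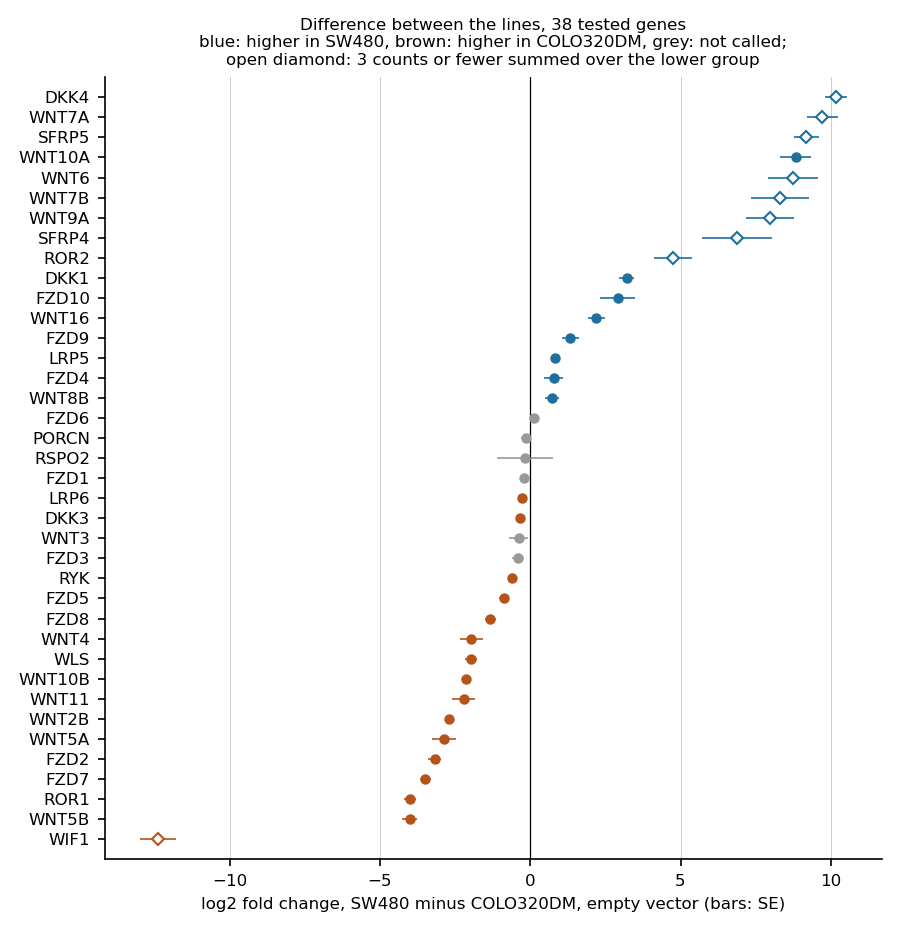
Fitted log2 fold change of SW480 over COLO320DM with empty vector for the 38 tested genes, with SE as bars, n = 3 libraries a group. Blue marks genes called higher in SW480, brown genes called higher in COLO320DM and grey genes not called, and open diamonds mark genes with 3 counts or fewer summed over the lower group, whose fitted value depends on the prior count. DKK4 and WIF1 lie at the ends and FZD6, PORCN, RSPO2, FZD1, WNT3 and FZD3 were not called.

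Among the antagonists, 3 were on in 1 line and at or near 0 in the other. WIF1, which captures WNT ligands outside the cell, was at 21.5, 13.2 and 16.5 CPM with empty vector and 22.4, 14.7 and 13.9 CPM with pCMV6-HKDC1 in COLO320DM and at 0 in all 6 SW480 libraries. With empty vector it was at least 687-fold higher in COLO320DM (floor of 3 counts over the SW480 group; adjusted p = 6.34e-08, edgeR). DKK4, itself a known β-catenin target that blocks LRP5 and LRP6, was at 18.4, 22.2 and 24.4 and 22.5, 31.2 and 32.5 CPM in SW480 and at 2 counts in all over the 6 COLO320DM libraries. Its empty-vector ratio was 1390 (95% exact counting interval 385 to 11500; adjusted p = 4.24e-10). SFRP5, which binds WNT ligands through a Frizzled-like domain, was at 12.1, 9.72 and 11.1 and 11.3, 12.03 and 14.1 CPM in SW480 and at no more than 2 counts in any COLO320DM library, a ratio of 703 (interval 194 to 5810; adjusted p = 2.88e-10). For WIF1, DKK4 and SFRP5 the libraries of the lines did not overlap.

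DKK1, the best known LRP5 and LRP6 blocker, was present in both lines, at 2.12, 0.810 and 1.13 and 1.32, 1.29 and 1.33 CPM in COLO320DM and 12.6, 11.3 and 13.8 and 14.5, 13.7 and 12.1 CPM in SW480. The log2 difference with empty vector was 3.21 (SE 0.26, adjusted p = 1.06e-07, edgeR), and every SW480 library was above every COLO320DM library. SFRP4 was at 0.181, 0.572 and 0.374 and 0.199, 0.562 and 0.372 CPM in SW480, at least 15.9-fold higher than in COLO320DM and still below 1 CPM. DKK3 was nearly level between the lines at 29.1 ± 1.80 CPM (SD, n = 3) in COLO320DM and 23.2 ± 3.21 CPM in SW480 with empty vector, a log2 difference of −0.33 (adjusted p = 0.0237, edgeR). This call was lost in 6 of 25 alternatives, among them without COLO320DM empty-vector replicate 1 (adjusted p = 0.0733), without that of SW480 (−0.22, adjusted p = 0.114) or without SW480 empty-vector replicate 2 (adjusted p = 0.0605). Of DKK3's exon bases 47.5% are shared with USP47 on the opposite strand, and as no strand setting is given the reads of this pair cannot be told apart. USP47 differed by −0.0041 between the lines (adjusted p = 0.975). DKK1 shares 10.2% with PRKG1-AS1.

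Tested ligands at or near 0 in COLO320DM and present in SW480 were WNT10A, WNT7A, WNT7B, WNT9A and WNT6. WNT10A was at 12.2, 22.8 and 22.7 CPM with empty vector and 10.7, 20.9 and 19.5 CPM with pCMV6-HKDC1 in SW480 and at 0 to 3 counts in each COLO320DM library, a ratio of 495 with empty vector (interval 212 to 1530; adjusted p = 4.25e-09, edgeR). WNT7A, which signals through β-catenin in many tissues, was at 2.62, 2.34 and 3.06 and 2.64, 2.32 and 2.17 CPM in SW480, at least 115-fold higher. WNT7B, its close relative, was at 0.960, 5.14 and 4.35 and 0.881, 2.25 and 2.0 CPM, a ratio of 448 (interval 80.0 to 17700). The replicate 1 libraries were the lowest for WNT10A and WNT7B, but not for WNT7A. WNT9A was at 1.40, 3.40 and 3.54 and 0.824, 2.15 and 2.15 CPM, a ratio of 359 (interval 64.1 to 14200). WNT6 was at 0.908, 1.39 and 1.78 and 0.824, 1.61 and 1.43 CPM, at least 58.8-fold higher. All 5 differences passed the test, with adjusted p between 4.25e-09 and 8.64e-06.

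Ligands higher in COLO320DM were present in both lines. WNT5B was at 10.1, 8.84 and 10.1 and 9.48, 8.81 and 9.63 CPM in COLO320DM and 0.363, 0.544 and 0.857 and 0.369, 0.587 and 0.401 CPM in SW480, with a log2 difference of −4.01 (SE 0.24, adjusted p = 6.93e-09, edgeR). WNT5A, the usual ligand of ROR1 and ROR2, was at 13.2, 13.1 and 12.6 and 13.2, 12.8 and 12.4 CPM in COLO320DM and 0.571, 2.23 and 2.48 and 0.682, 1.83 and 2.35 CPM in SW480. Its difference was −2.87 (SE 0.41, adjusted p = 3.28e-05) and the SW480 replicate 1 libraries were the lowest. WNT2B, a ligand of the intestinal crypt's supporting cells, was at 26.1, 25.1 and 24.8 and 26.4, 26.3 and 26.7 CPM against 3.35, 4.30 and 3.93 and 4.32, 4.70 and 4.15 CPM (log2 −2.71, SE 0.11, adjusted p = 1.75e-10). It shares 21.5% of its exon bases with ST7L on the opposite strand, which itself differed by −1.06. WNT10B was at 23.01, 22.4 and 23.7 and 24.3, 22.7 and 23.2 CPM against 5.37, 5.17 and 5.03 and 5.91, 4.99 and 5.67 CPM (log2 −2.15, SE 0.10, adjusted p = 6.37e-10), and WNT11 at 11.3, 13.03 and 13.2 and 13.8, 12.1 and 12.9 CPM against 4.77, 1.99 and 1.36 and 3.89, 1.69 and 1.63 CPM (log2 −2.22, SE 0.39, adjusted p = 1.90e-04). No library of 1 line overlapped the other line for these 5 ligands.

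The remaining tested ligands were WNT4, WNT16, WNT8B and WNT3. WNT4 was lower in SW480 (log2 −1.96, adjusted p = 5.12e-04, edgeR), and WNT16 and WNT8B were higher by 2.20 and 0.73 (adjusted p = 1.48e-05 and 0.0137), the latter losing its call without COLO320DM empty-vector replicate 2 (0.60, adjusted p = 0.0642). WNT3 was at 5.06, 3.76 and 3.65 and 5.85, 3.55 and 4.02 CPM in COLO320DM and 1.61, 3.92 and 4.0 and 1.96, 3.35 and 3.29 CPM in SW480, and its difference of −0.39 did not pass the test (SE 0.32, adjusted p = 0.296). With the replicate block it did (−0.46, adjusted p = 0.0033), and without replicate 1 it was 0.11 in the opposite direction.

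Pairs of neighbouring WNT genes were on and off together or apart. WNT6 (chr2:218859805-218874233, plus strand, GRCh38) and WNT10A (chr2:218880852-218899581, plus strand) lie 6618 bases apart, and both were at 0 to 3 counts in each COLO320DM library and present in each SW480 library. WNT10B (chr12:48965340-48971735, minus strand) and WNT1 (chr12:48978322-48982620, plus strand) lie 6586 bases apart, and WNT1 stayed below 0.20 CPM in the 12 libraries while WNT10B was at 4.99 CPM or more. Likewise WNT9A and WNT3A are 59065 bases apart on chromosome 1, and WNT3A had no more than 3 counts in any library. The deposited spans of WNT3 and WNT9B lie 46 bases apart on chromosome 17, on opposite strands, and WNT9B had no more than 7 counts in any library. These spans take in all deposited exons. The RefSeq promoters of WNT3 (chr17:46818643-46818942) and WNT9B (chr17:46851333-46851632) lie inside the spans and not at that gap.

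Among the receptors, FZD7 and FZD2, which can both carry β-catenin signals, were the Frizzled genes that differed most. FZD7 was at 16.6, 21.1 and 21.03 and 16.9, 21.8 and 20.9 CPM in COLO320DM and 1.74, 1.88 and 1.60 and 1.85, 1.20 and 1.54 CPM in SW480 (log2 −3.49, SE 0.18, adjusted p = 1.15e-09, edgeR). FZD2 was at 13.8, 18.98 and 19.4 and 16.4, 19.98 and 19.5 CPM against 1.71, 1.91 and 2.13 and 1.22, 2.20 and 1.86 CPM (log2 −3.18, SE 0.21, adjusted p = 1.38e-08). The lines did not overlap for either gene. FZD10 lay the other way at 2.90 (SE 0.59, adjusted p = 5.96e-04), with FZD9 at 1.33 and FZD4 at 0.78. Without replicate 1 in every group FZD10 was at 1.79 and still called. The FZD4 call (adjusted p = 0.0395, edgeR) was lost in 9 of 25 alternatives: it fell to 0.29 without SW480 empty-vector replicate 1 (adjusted p = 0.295) and was also lost without COLO320DM empty-vector replicate 1, 2 or 3 (adjusted p = 0.109, 0.0585 and 0.0878). FZD4 shares 18.9% of its exon bases with PRSS23 on the opposite strand, which was lower in SW480 (log2 −3.59). FZD5 and FZD8 were lower in SW480 (log2 −0.89 and −1.33), while FZD1, FZD3 and FZD6 did not pass the test without the block (log2 −0.20, −0.40 and 0.12).

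ROR1 and ROR2, receptor tyrosine kinases for WNT5A, differed in opposite directions. ROR1 was at 21.6, 20.7 and 19.7 and 18.7, 22.3 and 20.9 CPM in COLO320DM and 1.43, 1.12 and 1.32 and 1.82, 1.0 and 0.944 CPM in SW480 (log2 −4.0, SE 0.21, adjusted p = 1.31e-09, edgeR). ROR2 was at 0.622, 0.817 and 0.725 and 0.540, 0.782 and 1.26 CPM in SW480 and at 0 to 2 counts in each COLO320DM library, a ratio of 30.7 with empty vector (interval 10.1 to 152; adjusted p = 1.57e-05). Both genes were thus non-overlapping between the lines, ROR2 at a level near or below 1 CPM. LRP5 was at 55.2, 77.1 and 69.5 and 66.2, 76.5 and 76.7 CPM in COLO320DM and 113, 125 and 118 and 107, 112 and 133 CPM in SW480, higher by 0.82 (SE 0.12, adjusted p = 5.28e-05). RYK was at 118, 106 and 107 and 111, 107 and 106 CPM against 74.9, 71.0 and 73.9 and 76.1, 73.2 and 65.8 CPM, a difference of −0.59 (SE 0.08, adjusted p = 2.05e-05). LRP6 differed by −0.29 (adjusted p = 0.0441), a call lost in 8 of 25 alternatives, such as DESeq2 (adjusted p = 0.0513). Its value was −0.19 without SW480 empty-vector replicate 3 (adjusted p = 0.166), and the call was also lost without SW480 empty-vector replicate 2, COLO320DM empty-vector replicate 1 or 2, or COLO320DM pCMV6-HKDC1 replicate 1 (adjusted p = 0.0765, 0.122, 0.088 and 0.0538).

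WLS, the carrier that every lipid-modified ligand needs to leave the cell, was at 106, 116 and 119 and 104, 122 and 119 CPM in COLO320DM and 39.4, 23.4 and 23.9 and 40.5, 26.1 and 26.2 CPM in SW480. The log2 difference was −1.98 (SE 0.21, adjusted p = 1.47e-06, edgeR) and the lines did not overlap. PORCN did not differ past the threshold (log2 −0.15, adjusted p = 0.395).

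The 250 bases before the start are shown for WIF1, SFRP5 and WNT10A, on in 1 line and near 0 in the other. Those of DKK1 are shown for a match to a TCF/LEF motif, the β-catenin partners' binding letters. DKK1 was the only member searched that had a match. Of the 48 members 34 had a promoter in the RefSeq table used here (GRCh38.p14), 39 promoters in all. The other members, DKK4 among them, were not searched, nor were bases beyond these 250. The median number of CpG dinucleotides in the 250 bases was 24 for these 39 promoters and 11 for all 35116 in the table. The sequences run 5′ to 3′ on the gene's strand, with CpG in capitals for WIF1 (chr12:65121306-65121555, minus strand, 27 CpG), SFRP5 (chr10:97772000-97772249, minus strand, 21 CpG) and WNT10A (chr2:218880602-218880851, plus strand, 24 CpG). For DKK1 (chr10:52314031-52314280, plus strand) capitals mark the motif.
WIF1: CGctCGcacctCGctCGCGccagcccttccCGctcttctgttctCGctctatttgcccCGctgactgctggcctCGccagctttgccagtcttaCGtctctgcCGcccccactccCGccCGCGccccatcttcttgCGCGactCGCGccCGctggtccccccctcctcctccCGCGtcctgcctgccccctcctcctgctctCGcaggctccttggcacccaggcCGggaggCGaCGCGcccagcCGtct
SFRP5: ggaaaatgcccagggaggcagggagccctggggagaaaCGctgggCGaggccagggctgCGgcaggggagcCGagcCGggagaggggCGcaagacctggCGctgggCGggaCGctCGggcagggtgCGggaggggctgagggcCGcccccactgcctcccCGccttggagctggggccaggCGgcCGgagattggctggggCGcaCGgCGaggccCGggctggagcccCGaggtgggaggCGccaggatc
WNT10A: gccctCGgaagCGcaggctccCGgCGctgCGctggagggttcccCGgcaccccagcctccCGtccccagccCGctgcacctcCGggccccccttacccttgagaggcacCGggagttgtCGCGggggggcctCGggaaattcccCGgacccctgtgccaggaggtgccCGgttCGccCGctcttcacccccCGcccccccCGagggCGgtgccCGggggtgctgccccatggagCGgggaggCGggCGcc
DKK1: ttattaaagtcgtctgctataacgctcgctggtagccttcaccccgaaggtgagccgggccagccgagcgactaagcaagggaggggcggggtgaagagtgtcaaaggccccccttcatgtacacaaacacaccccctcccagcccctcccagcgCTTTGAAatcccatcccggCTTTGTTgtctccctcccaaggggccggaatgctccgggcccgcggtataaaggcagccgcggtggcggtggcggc
Both strands were searched for CTTTGAA and for its variants ending in AT, TA or TT in place of the last AA. DKK1 held CTTTGAA at 89 to 95 bases and CTTTGTT at 70 to 76 bases before its start, both on the gene's strand and not overlapping. This was 1 of 39 member promoters (2.6%), against 12% of all promoters in the table. DNA methylation and factor binding were not measured in these libraries.

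The plasmid comparison asked whether HKDC1 expression moved these genes. In COLO320DM no member was called by edgeR's quasi-likelihood test (0 of 38, background 0.00844%), nor with the replicate block (background 0.0760%), and DESeq2 and limma-voom called 0 too. In each edgeR fit 1 member had an unadjusted p under 0.05, WNT16, a ligand expressed at a low level here. WNT16 was at 0.306, 0.453 and 0.463 CPM with empty vector and 0.609, 0.588 and 0.839 CPM with pCMV6-HKDC1, and the groups did not overlap. The log2 difference was 0.73 (SE 0.31, adjusted p = 1, edgeR). WNT2B was the other tested member whose groups did not overlap, at a difference of 0.07. These were 2 of 38 members, against 7.74% of all genes tested. Of the 38 members 20 lay above 0, with a median log2 difference of 0.01, against −0.001 over all genes tested.

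**Figure D3:**
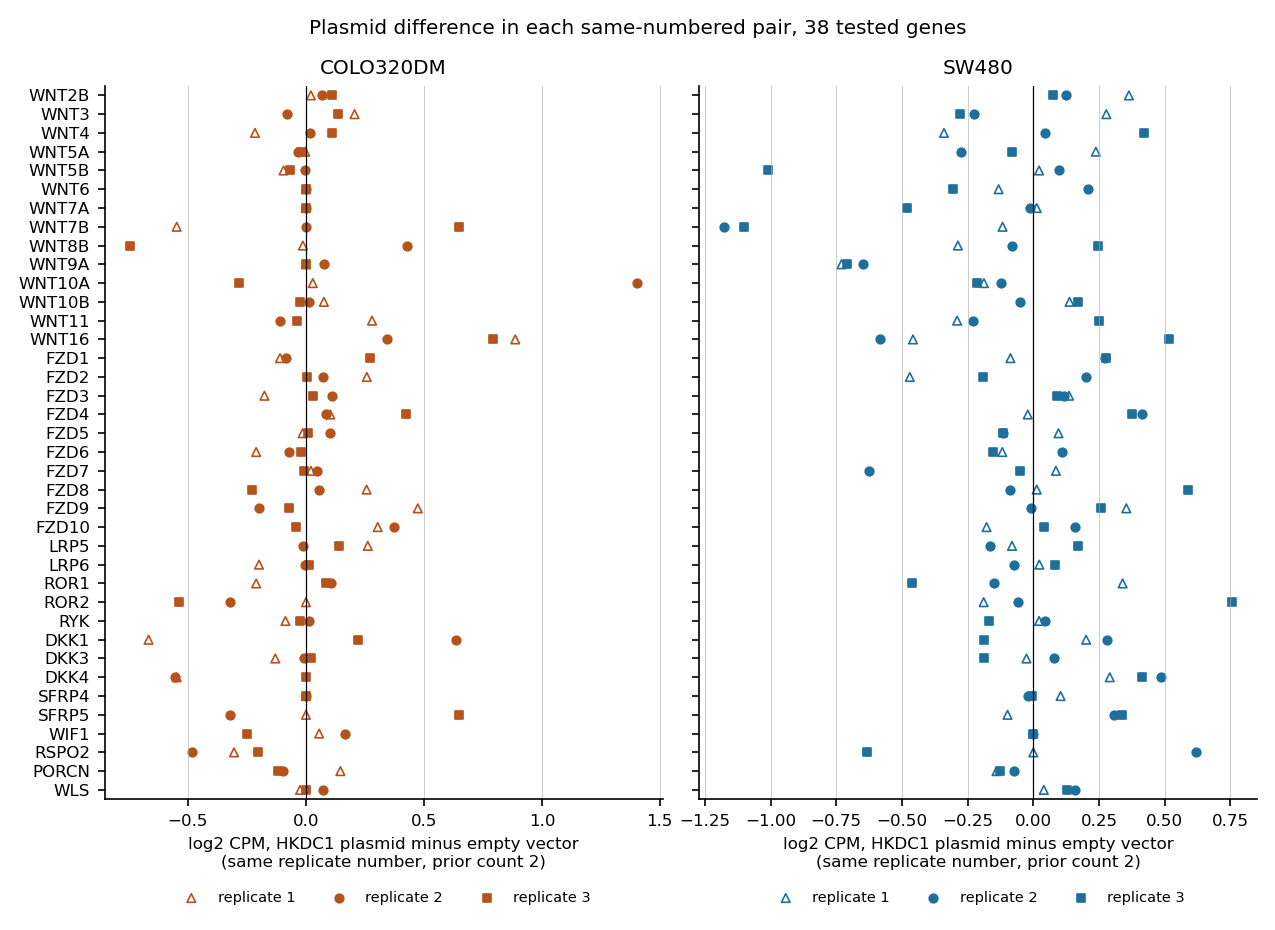
Difference in log2 CPM (prior count 2) between pCMV6-HKDC1 and empty vector for each pair of libraries with the same replicate number, for the 38 tested genes in each line. Open triangles are replicate 1, filled circles replicate 2 and filled squares replicate 3. In SW480 the 3 pairs of DKK4 lie between 0.29 and 0.49, those of WNT9A between −0.73 and −0.65, and those of WNT7B at −0.12, −1.18 and −1.10, and a point at 0 can mean 0 counts in both libraries.

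In SW480 no member was called without the block (0 of 38, background 0.0127%; 1 member, DKK4, at an unadjusted p under 0.05; 0 called by DESeq2, 0 by limma-voom). In the fit with the replicate block, which compares libraries of the same number, 2 of 38 were called against a background of 0.760%: DKK4 higher (background 0.165%) and WNT7B lower (background 0.595%). The block was taken from the data, since deviations of same-numbered libraries from their group means correlated in each of the 3 pairs. However, r across numbers 2 and 3 was 0.369 and 0.467, against 0.436 and 0.313 within them. Deviations from a mean of 3 libraries sum to 0, so an outlying replicate 1 alone can make 2 and 3 correlate. The r thus set replicate 1 apart and do not show 3 separate pairs.

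DKK4 in SW480 was at 18.4, 22.2 and 24.4 CPM with empty vector and 22.5, 31.2 and 32.5 CPM with pCMV6-HKDC1. It was higher with HKDC1 in 3 of 3 pairs, but the groups overlapped, since replicate 1 with HKDC1 lay below replicate 3 with empty vector. The log2 difference was 0.40 with the block (SE 0.08, adjusted p = 0.0112, edgeR) and 0.41 without it (SE 0.17, adjusted p = 1). With the block DESeq2 gave an adjusted p of 0.0514 and limma-voom 0.0217. Leaving out pair 1, 2 or 3 gave 0.43, 0.34 and 0.39, with adjusted p of 0.0104, 0.540 and 0.0340.

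WNT7B in SW480 was at 0.960, 5.14 and 4.35 CPM with empty vector and 0.881, 2.25 and 2.0 CPM with pCMV6-HKDC1. It was lower with HKDC1 in 3 of 3 pairs, by little in replicate 1, where both libraries were below 1 CPM, and by more than 1 on the log2 scale in replicates 2 and 3. The log2 difference was −0.95 with the block (SE 0.21, adjusted p = 0.0178, edgeR) and −1.02 without it (SE 0.50, adjusted p = 1). Limma-voom with the block gave an adjusted p of 0.135, and DESeq2 gave no adjusted p. Leaving out pair 1, 2 or 3 gave −1.18, −0.78 and −0.85, with adjusted p of 0.00125, 0.596 and 0.108. The call therefore did not hold without replicate 2 or without replicate 3.

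Without replicate 1 in every group, a setting chosen after the data were seen, both genes were also called with no block (DKK4 0.43, adjusted p = 0.0041; WNT7B −1.17, adjusted p = 3.21e-04, edgeR). WNT9A was at 1.40, 3.40 and 3.54 CPM with empty vector and 0.824, 2.15 and 2.15 CPM with pCMV6-HKDC1 and lower in 3 of 3 pairs. Its difference with the block was −0.71 (SE 0.20), and the adjusted p of 0.0923 missed the threshold. WNT10A, also lower in 3 of 3 pairs, differed by −0.18 (adjusted p = 0.554). Of the 14 tested ligands 3 lay above 0 in SW480 with the block, with a median of −0.13. So did 5 of 10 Frizzled receptors and 4 of 6 antagonists. Over all genes tested 11903 of 23684 lay above 0, with a median of 0. A shift of the ligands as a class was not tested. No member had non-overlapping plasmid groups in SW480, against 4.44% of all genes tested.

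DKK4 and WNT7B were too low in COLO320DM to compare, at 0 to 1 counts a library. In the test of the difference between the lines' plasmid effects no member was called without the block (0 of 38, background 0.00844%; no member at an unadjusted p under 0.05) or with it (background 0.0422%; 1 member, WNT16, at an unadjusted p under 0.05). An effect of the plasmid in SW480 that differs from COLO320DM was therefore not detected for any member, by limma-voom or DESeq2 either.

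Other genes of the pathway were taken from 4 lists. In SW480 with the block the background over all genes tested was 0.165% higher and 0.595% lower. Of 35 intracellular components 35 were tested, and 0 were higher and 1 lower, BCL9L, a β-catenin co-activator (−0.25, adjusted p = 0.0481, edgeR). Of 25 target genes 0 were higher and 1 lower, MYC, which was at 906 to 936 CPM with empty vector and 733 to 863 CPM with pCMV6-HKDC1 (−0.24, adjusted p = 0.0284). None of 24 tested receptor-level regulators or 29 tested genes of the planar cell polarity and calcium branch was called, and none of these 4 lists had a call in COLO320DM (background 0.0760%). Neither BCL9L nor MYC was called without the block.

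More members differed by replicate number than by plasmid. A test of the number over the 3 replicates of a line, in the edgeR fit with the block, called 18 of 38 members in SW480 (background 38.5%) and 9 of 38 in COLO320DM (background 16.0%). These shares are near the background and say nothing particular of the members as a class. Over all genes the biological coefficient of variation was 0.157 without the block and 0.0596 with it.

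**Figure D4:**
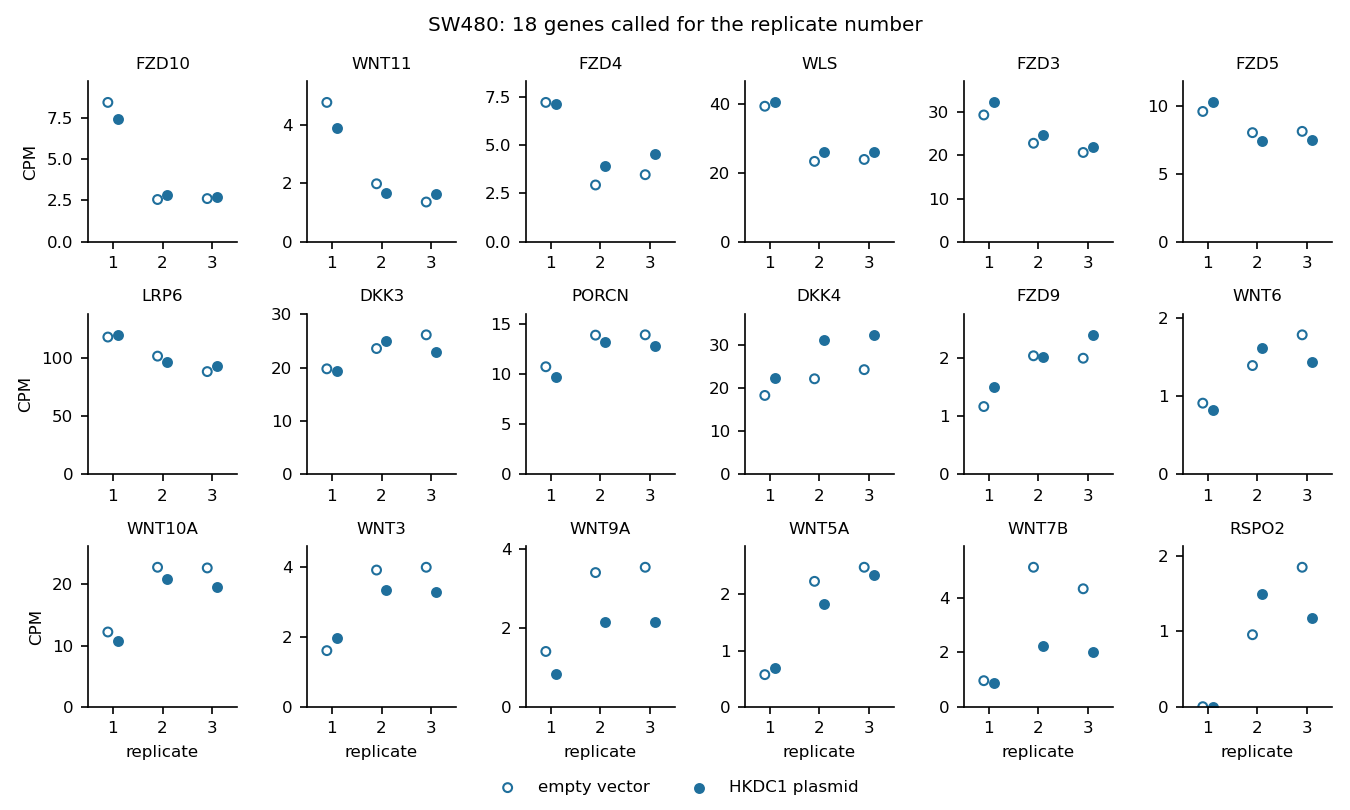
CPM in the 6 SW480 libraries for the 18 genes called for the replicate number, with the replicate on the horizontal axis and a vertical axis from 0 in each panel. Open circles are empty vector and filled circles pCMV6-HKDC1. Replicate 1 is high for FZD10, WNT11, FZD4 and WLS and low for WNT10A, WNT3, WNT9A, WNT5A, WNT7B and RSPO2 with either plasmid.

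In SW480 RSPO2, a strong enhancer of WNT signalling, had 0 counts in both replicate 1 libraries and 35 and 84 counts in replicates 2 and 3 with empty vector and 61 and 41 with pCMV6-HKDC1. It was at least 34.4-fold lower in replicate 1 (floor of 3 counts over both libraries, 0.0371 CPM; adjusted p = 4.25e-10, edgeR). FZD10 was at 8.43, 2.56 and 2.62 and 7.45, 2.86 and 2.69 CPM, and replicates 2 and 3 lay below replicate 1 (log2 −1.55 and −1.58, adjusted p = 1.92e-10). WNT11 followed the same pattern at 4.77, 1.99 and 1.36 and 3.89, 1.69 and 1.63 CPM (−1.24 and −1.55, adjusted p = 4.87e-09). WLS, at 39.4, 23.4 and 23.9 and 40.5, 26.1 and 26.2 CPM, also lay lower in replicates 2 and 3 (−0.69 and −0.67, adjusted p = 3.94e-10), and FZD4, at 7.21, 2.94 and 3.47 and 7.11, 3.94 and 4.52 CPM, did so by −1.07 and −0.86. PRSS23, which overlaps FZD4, differed in the same direction.

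Of the 14 tested ligands, 6 were called higher in replicates 2 and 3 in SW480 and 1, WNT11, lower. WNT5A was at 0.571, 2.23 and 2.48 and 0.682, 1.83 and 2.35 CPM, higher in replicates 2 and 3 by 1.70 and 1.95 (adjusted p = 1.42e-08, edgeR). WNT7B was higher there by 1.95 and 1.74, WNT9A by 1.32 and 1.35, WNT3 by 1.03 and 1.04, WNT10A by 0.93 and 0.88 and WNT6 by 0.80 and 0.89. In each of these 6 ligands both replicate 1 libraries were below the other 4 libraries. The other called members were FZD3, FZD5 and LRP6, lower in replicates 2 and 3, and FZD9, DKK3, DKK4 and PORCN, higher there, by at most 0.72 on the log2 scale. USP47, which overlaps DKK3, differed in the same direction as DKK3 (mean log2 0.17, adjusted p = 0.0495, edgeR). Without SW480 empty-vector replicate 1 the calls of WNT6, FZD5, FZD9, DKK3 and PORCN were lost, and without pCMV6-HKDC1 replicate 1 those of WNT6, FZD5, FZD9, DKK4 and PORCN. FZD9 was also lost without empty-vector replicate 2 or pCMV6-HKDC1 replicate 3, WNT6 without empty-vector replicate 3 or pCMV6-HKDC1 replicate 2, and FZD5 without the latter.

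In COLO320DM the differences were smaller. WIF1, at 21.5, 13.2 and 16.5 and 22.4, 14.7 and 13.9 CPM, was lower in replicates 2 and 3 (−0.65 and −0.53, adjusted p = 1.51e-04, edgeR), and FZD3, at 40.5, 29.03 and 26.7 and 35.8, 31.4 and 27.2 CPM, was too (−0.34 and −0.50). Both replicate 1 libraries were above the other 4 for these genes. WNT4, at 0.801, 1.55 and 1.55 and 0.683, 1.57 and 1.68 CPM, was higher in replicates 2 and 3 (1.07 and 1.11, adjusted p = 0.00887). LRP5, FZD2 and FZD7 were higher there by 0.27 to 0.37. RSPO2, WNT3 and FZD10 complete the 9. DESeq2 called 4 of the 9. Leaving out COLO320DM replicate 1 or 3 of empty vector or replicate 1 of pCMV6-HKDC1 left 1, 5 and 4 members called.

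WNT3, FZD3, FZD10 and RSPO2 were called for the replicate number in both lines. A test of whether the replicate differences themselves differed between the lines, added after the data were seen, called 10 of 38 members (background 18.4%). These were RSPO2, WLS, FZD10, WNT5A, WNT11, WNT3, FZD4, DKK3, FZD5 and LRP6. Of the 4 genes called in both lines, FZD3 was lower in replicates 2 and 3 in both, and the other 3 went in opposite directions. WLS and FZD4 were lower in replicates 2 and 3 in SW480, while in COLO320DM their replicate 1 libraries lay below the same plasmid's other libraries, by a difference that was not called (adjusted p = 0.103 and 0.433, edgeR). WNT3 was lower in replicates 2 and 3 in COLO320DM (−0.57 and −0.51) and higher in SW480 (1.03 and 1.04). FZD10, at 0.306, 0.572 and 0.925 and 0.390, 0.755 and 0.897 CPM in COLO320DM, was higher there by 0.92 and 1.39, against −1.55 and −1.58 in SW480. RSPO2, at 1.58, 0.881 and 0.740 and 1.27, 0.616 and 0.636 CPM in COLO320DM, was lower there (−0.92 and −1.05), while in SW480 it was detected only in replicates 2 and 3.

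**Figure D5:**
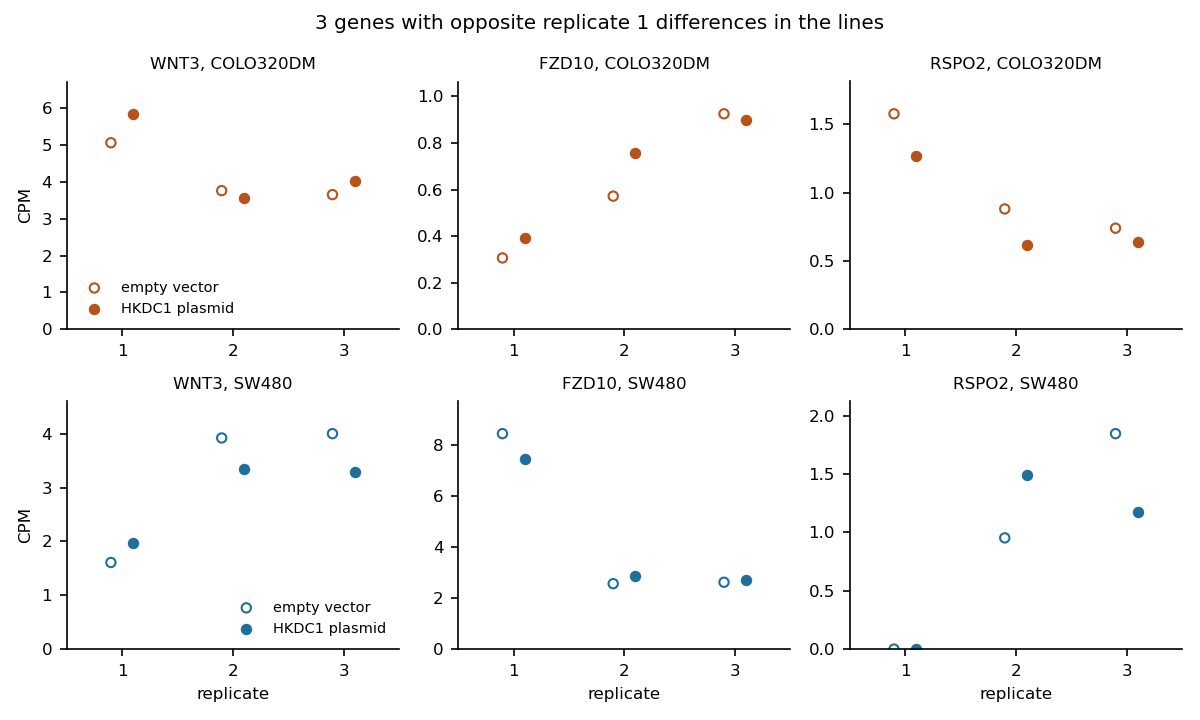
CPM of WNT3, FZD10 and RSPO2 in COLO320DM (brown, upper panels) and SW480 (blue, lower panels), by replicate, with vertical axes from 0 and their own scale. Open circles are empty vector and filled circles pCMV6-HKDC1. WNT3 and RSPO2 are highest in replicate 1 in COLO320DM and lowest there in SW480, and FZD10 is lowest in replicate 1 in COLO320DM and highest there in SW480.

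Because of this split the line comparison of RSPO2 depended on replicate 1. RSPO2 did not pass the test without the block (log2 −0.17, SE 0.94, adjusted p = 0.880, edgeR). It was called lower in SW480 with the block (−2.46, adjusted p = 4.76e-05), a fitted value that depends on the prior count because of the libraries at 0. Without replicate 1 it was called higher in SW480 (0.82 with no block, adjusted p = 0.0136; 0.79 with the block, adjusted p = 0.0268). No direction between the lines is therefore given for this gene.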

How the data were processed

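RNA was measured by poly-A sequencing in 12 libraries, 3 in each of 4 groups taken from the sample labels. The authors deposited 1 table of raw counts for all genes, which also gives each gene's length and place. HISAT2 2.1.0, limma and the GRCh38 build appear in the submitters' processing notes, and the labels' protocols mention no step that marks strand. The sources used here give no read counter, annotation release or strand setting, so overlapping genes on opposite strands could not be separated.

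Library totals were 33790733 to 45451279 counts. Intervals and floors (3 counts) speak of counting error alone. In edgeR 4.0.16 (R 4.3.3) a single model with 4 group means was fitted to the 12 libraries after TMM scaling. The filter was filterByExpr with a minimum count of 10 and a minimum total of 15, which left 23684 genes and 38 of the 48 members. Tests were robust quasi-likelihood F tests, and a Benjamini-Hochberg adjusted p under 0.05 over all genes tested was called. SE was taken from the log2 fold change and its F statistic (fold change over root F). CPM were scaled by TMM factors and SD is over 3 libraries. The scripts were tested on simulated data.

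A second fit had a replicate block, the number nested in the line, with 4 residual degrees of freedom against 8 without it. Same-numbered libraries deviated together from their group means (r = 0.403, 0.134 and 0.119 in COLO320DM and 0.723, 0.436 and 0.313 in SW480). The labels give no pairing beyond the number, so the block rests on these r. Libraries numbered 2 and 3 had similar r across numbers (0.15 and 0.16, 0.369 and 0.467). The r therefore do not tell which libraries numbered 2 and 3 pair, and pairs 2 and 3 may not be independent. The replicate number was tested in this fit with both its terms together.

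The members, lists and tests were chosen with earlier results of these data known. Values per library are given for members called for the plasmid with or without the block, the members with the highest RPKM in each class and line, the 10 called members with the largest line difference in each direction, and up to 10 members a line called for the replicate number. Alternatives were RLE factors or none, no filter, limma-voom 3.58.1, DESeq2 1.42.0, only the libraries compared, other expression levels, and each library or pair left out.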

Additional observations from a re-analysis of the deposited data

Results flagged for a closer look

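In 10 members the difference between the replicates was not the same in COLO320DM and SW480, by a test of that difference itself in the edgeR fit with the replicate block, adjusted over all genes tested, of which 18.4% passed. The adjusted p was 1.29e-09 for RSPO2, 1.61e-07 for FZD10 and 5.87e-06 for WNT3, which were called for the replicate number in both lines and went in opposite directions with both plasmids. It was 1.72e-08 for WLS, 4.29e-07 for WNT5A, 9.83e-07 for WNT11, 8.78e-05 for FZD4, 0.0293 for DKK3, 0.0315 for FZD5 and 0.0447 for LRP6, which were called for the replicate number in SW480 and not in COLO320DM. USP47, which overlaps DKK3, and PRSS23, which overlaps FZD4, passed the same edgeR test (adjusted p = 0.00383 and 0.00179). The reads of these pairs cannot be told apart. What the replicate number marks was not tested.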

How the results depend on the processing

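With the replicate block 2 members were called for the plasmid in SW480 instead of 0, limma-voom with the block called 1, the block without 1 pair called 0 to 2, and leaving out replicate 1 in all groups with no block, added after seeing the data, called 2. The block changed no other plasmid count: 0 in COLO320DM and 0 for the difference between the lines in each fit run. The COLO320DM replicate count of 9 was 4 with DESeq2 and 1 to 10 when 1 library was left out. The SW480 count of 27 expressed members was 15 at 1 RPKM. The RSPO2 line difference ranged from −1.16 to 0.42 when 1 library was left out. It turned to 0.22 without COLO320DM empty-vector replicate 1, to 0.42 without that of SW480, and to 0.79 and 0.82 without replicate 1 with and without the block, and WNT3 turned to 0.11 in both of the last. The line count stayed within 28 to 36 members over the alternatives and the SW480 replicate count within 13 to 20. Over the 65 single-gene results, 1323 alternatives kept direction and side of the threshold, 72 lost the call, 34 gained it and 6 changed sign. Fitting only the libraries compared gives no separate value for the difference between the lines. Depth limits genes near 0: 3 counts over 6 libraries are about 0.01 CPM, and WNT6, SFRP4, ROR2 and RSPO2 rest on few reads.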

Other observations

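Further genes of the pathway also differed between the lines with empty vector, where 71.6% of all genes tested were called by edgeR's quasi-likelihood test. By direction 37.3% of all genes tested were higher in SW480 and 34.3% lower. Of 24 tested receptor-level regulators 5 were higher in SW480 and 12 lower, and the 3 with the widest difference were LGR6, an R-spondin receptor (0.28–0.33 CPM in COLO320DM, 6.62–14.01 CPM in SW480), KREMEN2, a DKK co-receptor (0.46–0.91 and 13.2–14.2 CPM), and the glypican GPC4 (537.6–597.0 and 28.7–31.0 CPM). Of 35 intracellular components 14 were higher and 13 lower, led by the co-repressor TLE1 (51.1–59.2 and 0.29–0.38 CPM), the nuclear cofactor PYGO1 (25.4–35.1 and 0.27–0.52 CPM) and BCL9L (9.63–13.8 and 97.3–161.3 CPM). Of 25 target genes 14 were higher and 7 lower, and SMOC2 and TDGF1 were at 0 in the COLO320DM libraries with empty vector and at 9.54–23.7 and 1.84–3.91 CPM in SW480, with PROX1 at 0.51–1.04 and 127.1–229.9 CPM. Of 29 tested genes of the planar cell polarity and calcium branch 10 were higher and 16 lower. The core polarity genes VANGL1 (0.40–0.59 CPM in COLO320DM, 18.8–33.7 CPM in SW480) and VANGL2 (37.4–40.4 and 1.45–2.35 CPM) went in opposite directions, and were picked after their values were seen. The widest differences in that list were in NFATC2, VANGL1 and NFATC1.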
